A study of Neurospora crassa with 22 samples.

Results

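In the genome of the filamentous fungus Neurospora crassa many neighbouring genes are read away from each other, so that 1 stretch of DNA lies upstream of both. The peaks described here are those of CLR-2, CLR-1 and XLR-1, 3 regulators of plant cell wall degradation, that lie in such stretches. A peak was taken when the deposited table listed no gene inside it, listed a gene on either side, and placed its summit at most 2000 bp from the start codon of both. Of 29497 peaks on the 7 chromosomes in 13 peak lists, 1581 (5.36%) met this rule. Member peaks that overlapped by at least 1 bp were merged across lists, which gave 758 regions beside 742 gene pairs. All peaks of the same lists, merged in the same way, gave 8558 regions. These were formed separately, so the 758 are not a subset of them.

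A transcription factor bound between divergent genes can act on either gene, on both or on neither, and binding alone does not tell which. CLR-1 and CLR-2 are zinc binuclear cluster regulators that N. crassa needs to express its cellulases, and CLR-1 is needed for the expression of clr-2. XLR-1 is the regulator of xylan-degrading enzymes and of pentose use. Each was followed by ChIP-seq, in which sheared chromatin is pulled down with an antibody to a tag on the factor and sequenced.

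All strains were of the OR74A (FGSC2489) background and had grown for 16 h on sucrose before the mycelium was washed and moved to a new carbon source for 4 h (the unit of this time is read from knowledge of the study, since the labels give the number alone). The mCherry-CLR-2 strain, with clr-2 deleted, was on Avicel, a crystalline cellulose (3 lists). The CLR-1-GFP strain, with clr-1 deleted, was on Avicel (3 lists) and on sucrose (2 lists). The XLR-1-GFP strain, with xlr-1 deleted, was on Avicel (3 lists) and on xylan (3 lists, of which 2 were used, since the gene columns of list 2 are a copy of those of list 1). Every tagged gene sat at his-3 behind the ccg-1 promoter and not its own, so the amount of factor need not be that of the wild type. Of the 22 samples in the series 17 have a peak list, and the inputs and the mock pulldowns, from strains that made the fluorescent protein alone, were not analysed here. Nothing in the labels says that lists of a group came from separate cultures, so p-values measure the spread between these lists, which may be technical.

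The lists were unequal, and this touches every count below. They held between 658 peaks (XLR-1 on xylan list 3) and 6868 peaks (XLR-1 on Avicel list 3) on the 7 chromosomes. Total reads per library are unknown. Member peaks had a median of between 15 tags (XLR-1 on Avicel list 2) and 1375 tags (CLR-2 list 2). In CLR-2 list 1, 97.1% of the member peaks had a fold enrichment below 1, against 16.8% in list 3 and 0% in list 2. In the CLR-2 lists between 57.5% and 100% of the member peaks had a false discovery rate (FDR) over 5%, and in CLR-1 list 2 on sucrose 98.6% did. Scores and folds are the authors' own values for each peak and are compared only within a list. Of the 758 regions 290 had a summit in 1 list alone, and for 188 of these it was XLR-1 on Avicel list 3, while 468 had a summit in at least 2 lists.

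The 758 regions are called by 2 rules. The first counts a group at a region when at least 2 of its lists have a peak summit anywhere inside the merged region (both lists for XLR-1 on xylan and for CLR-1 on sucrose). The second, chosen after the values were seen, asks in addition that these summits lie between the 2 start codons. It was added because the 5 CLR-1 lists measure distances from the start of the peak and the other 8 from its summit, so that a CLR-1 peak can be listed between 2 genes while its summit lies beyond the right one. In all, 701 regions had at least 1 summit between the start codons and 57 had none. The orientation held in the reference annotation as well, where the listed start codon was nearer the right end for 733 of 742 left genes and nearer the left end for 731 of 742 right genes.

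The stretches were short, and most summits lay within 1000 bp of the nearer start codon. The start codons lay between 303 and 3724 bp apart, with a median of 1482 bp. Over the 701 regions with a summit between the start codons, the median summit lay 434.5 bp from the nearer one (quartiles 268 and 697 bp). Of the 263 regions called by the second rule in at least 1 group, the summit was within 500 bp of the nearer start codon in 135 and within 1000 bp in 235. In 104 of the 263 both start codons were within 1000 bp. The nearer start codon lay, in the median, at 33.6% of the distance between the start codons. No comparison with evenly placed summits was made, and short stretches limit all these distances. By NCBI RefSeq on the NC12 assembly, 563 of 1490 member summits between start codons (37.8%) were inside the annotated span of a flanking gene, upstream of its start codon. The share was 41.6% for CLR-2, 29.8% for CLR-1 on Avicel, 42.2% for CLR-1 on sucrose, 40.6% for XLR-1 on Avicel and 30.9% for XLR-1 on xylan. No exon table was used, so introns and leaders within these spans were not told apart.

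**Figure D1:**
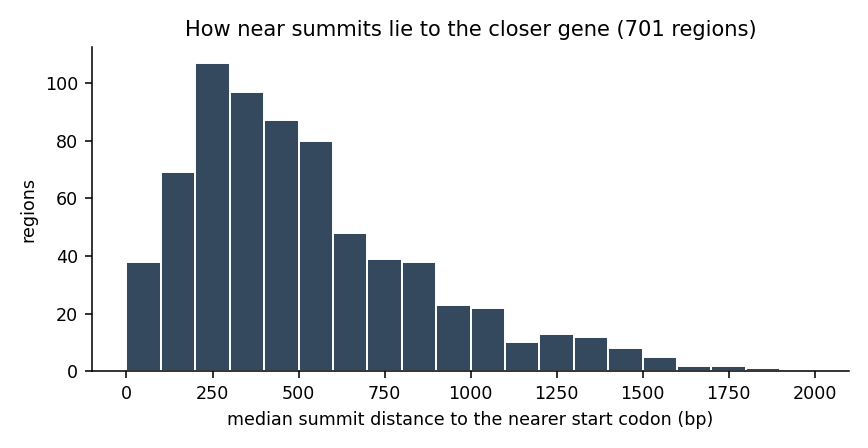
Histogram of the median summit distance to the nearer start codon (x axis, bp, in bins of 100 bp) over the 701 regions with a summit between the start codons (y axis, number of regions). The bulk lies within 1000 bp, with a median of 434.5 bp.

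On Avicel, CLR-1 and XLR-1 each sat at more of these regions than CLR-2 did. CLR-2 was called at 67 of the 758 (8.84%), beside a background of 16.1% of all 8558 merged regions called by the same rule. CLR-1 on Avicel was called at 186 (24.5%), beside a background of 15.4%. XLR-1 on Avicel was called at 169 (22.3%), beside 23.8%. On the other carbon sources XLR-1 on xylan was called at 50 (6.60%), beside 5.12%, and CLR-1 on sucrose at 83 (10.9%), beside 5.45%. The share for CLR-2 was thus below its background, that of CLR-1 above it on both carbon sources, and that of XLR-1 near it. The background regions were merged from all peaks and the 758 from member peaks alone, so the 2 sets were built differently. A call depends on summits inside a region and so on its width, which was not matched. No test of these shares against the background was made. These counts moved with single lists, since a group left with 2 lists needed both. The 67 regions of CLR-2 became 19 without list 1 and 15 without list 3. The 186 of CLR-1 on Avicel became 70 without list 1 and 77 without list 3, and the 169 of XLR-1 on Avicel became 63 without list 1 and 64 without list 3.

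With summits restricted to the stretch between the start codons, the counts were 40 for CLR-2, 162 for CLR-1 on Avicel, 71 for CLR-1 on sucrose, 118 for XLR-1 on Avicel and 43 for XLR-1 on xylan. The same rule called 4.29%, 15.5%, 6.8%, 10.5% and 3.7% of the 1352 pairs of divergent neighbours with start codons at most 4000 bp apart, with or without a listed member peak. Most members carry a summit by their choice, so nothing is read from that comparison.

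**Figure D2:**
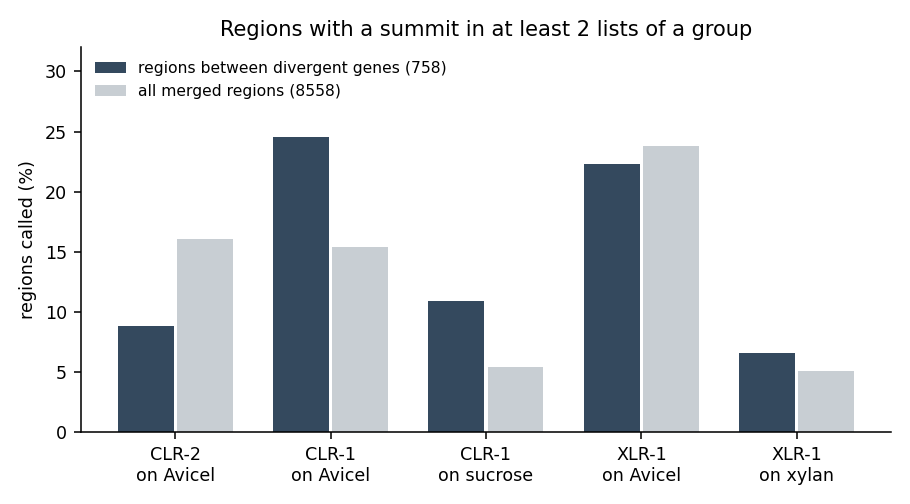
Percent of regions with a summit in at least 2 lists of a group (y axis), for the 758 regions between divergent genes (dark bars) and all 8558 merged regions (light bars), by group (x axis). The dark bar is lower than the light one for CLR-2 (8.84% and 16.1%) and higher for CLR-1 on Avicel (24.5% and 15.4%).

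The share of each list's peaks that met the rule was also taken, with lists as the unit. It was 2.38%, 1.47% and 3.83% in the CLR-2 lists, 6.13%, 4.86% and 8.74% in the CLR-1 lists on Avicel, 4.16% and 6.87% in those on sucrose, 5.47%, 6.69% and 6.38% in the XLR-1 lists on Avicel and 6.69% and 11.1% in those on xylan. Every CLR-2 list was below every list of the other groups. CLR-2 averaged 2.56% ± 1.19, and XLR-1 on Avicel 6.18% ± 0.632 (SD, n = 3 each; two-sided exact permutation p = 0.1, adjusted p = 0.25 over 5 comparisons). CLR-2 against CLR-1 on Avicel, at 6.57% ± 1.98 (SD, n = 3), gave exact permutation p = 0.1 as well (adjusted p = 0.25). A p of 0.1 is the smallest that 3 lists against 3 allow, so neither comparison could pass the threshold of 0.05.

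The other 3 comparisons did not separate the lists. CLR-1 minus XLR-1 on Avicel was 0.394 percentage points (exact permutation p = 0.9). CLR-1 on Avicel minus sucrose was 1.06 points (exact permutation p = 0.8), with 5.51% ± 1.92 on sucrose (SD, n = 2). XLR-1 on Avicel minus xylan was -2.71 points (exact permutation p = 0.4), with 8.89% ± 3.12 on xylan (SD, n = 2); 3 lists against 2 allow no p under 0.2. With flanking genes taken again from the summit in every list, CLR-2 minus CLR-1 was -6.69 points (exact permutation p = 0.1, against -4.01 points as deposited), CLR-1 minus XLR-1 was 3.07 points (exact permutation p = 0.3) and CLR-1 on Avicel minus sucrose was -0.0289 points (exact permutation p = 1).

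**Figure D3:**
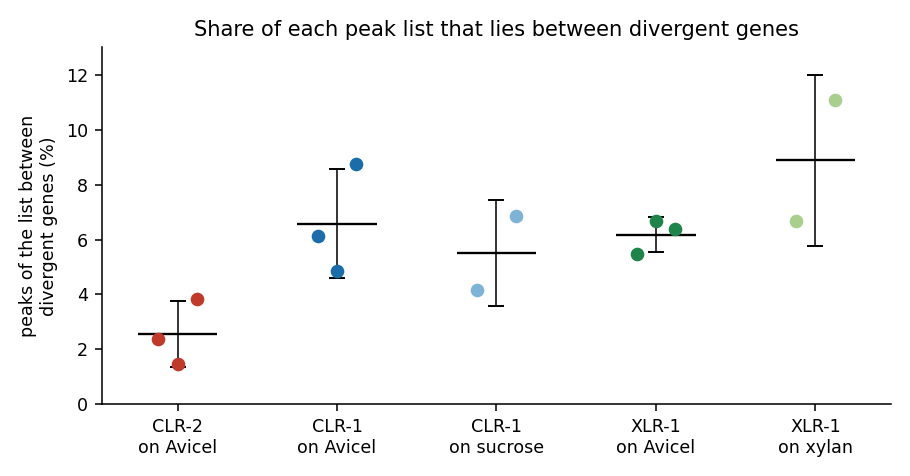
Share of the peaks of each list that lie between divergent genes (y axis, percent), by group (x axis). Points are lists, the bar is the mean and the error bar the SD. The 3 CLR-2 lists, at 1.47% to 3.83%, lie below all lists of the other groups.

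At the regions beside cellulose genes, CLR-2 was the group called most often. Of 23 genes of cellulose degradation, 7 stood beside a member region. In all, 1484 genes did, and the 7 chromosomes hold 9729 protein-coding genes. CLR-2 was called at 6 of these 7 regions by either rule. Over all 758 it was called at 67 by the first rule and at 40 by the second. CLR-1 on Avicel was called at 4 of the 7. XLR-1 on Avicel was called at 1 by the first rule and at 0 by the second, XLR-1 on xylan at 2 and 1, and CLR-1 on sucrose at 1 and 0. Over all 758 the first rule called CLR-1 at 24.5% on Avicel and 10.9% on sucrose. It called XLR-1 at 22.3% on Avicel and 6.60% on xylan. The 7 regions were not tested against these shares and are too few to tell a low count from such a share. In 6 of the 7 the cellulose gene was the nearer of the pair by the median summit. The gene lists were chosen with earlier results of these data known, so these counts are a description.

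The gene cbh-1 (NCU07340) encodes a cellobiohydrolase, an enzyme that releases cellobiose from the ends of cellulose chains. It is read away from NCU07339, with start codons 2211 bp apart, and the annotated cbh-1 gene spans chromosome IV, 4311049 to 4314145 (NC12). Summits between the start codons lay 482, 745 and 456 bp upstream of the cbh-1 start codon in CLR-2 lists 1, 2 and 3, and 421, 407 and 318 bp in CLR-1 lists 1, 2 and 3 on Avicel. Their folds were 0.28, 8.12 and 7.83 in the CLR-2 lists and 28.8, 13.4 and 22.9 in the CLR-1 lists. All 6 lay on the cbh-1 side of the stretch, at least 1466 bp from NCU07339. The ranges of the 2 factors did not overlap and were 35 bp apart, with CLR-1 nearer to cbh-1. XLR-1 had 1 summit there on Avicel, at 413 bp in list 3 (fold 10.1), and CLR-1 on sucrose 1, at 351 bp in list 1 (fold 4.08).

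The merged region at cbh-1 is the widest of all, at 10651 bp, and had a summit in all 13 lists. The other XLR-1 summits in it did not lie at cbh-1. They stood between 6055 and 6058 bp from its start codon, and 3844 to 3847 bp beyond that of NCU07339, in lists 1 and 2 on Avicel and both lists on xylan, which is why the 2 rules differ at this gene. CLR-1 list 2 on Avicel, CLR-1 list 1 on sucrose and CLR-2 list 1 had their best-scored summit there too, at 6028, 6064 and 6109 bp.

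The gene cdh-1 (NCU00206) encodes cellobiose dehydrogenase, an oxidative enzyme that passes electrons to the monooxygenases. It shares a stretch of 2092 bp with NCU00207 on chromosome III (merged region 3005598 to 3010079). Summits lay 895, 878 and 864 bp from the cdh-1 start codon in the CLR-2 lists, with folds of 0.32, 9.01 and 11.1. In CLR-1 lists 1 and 3 on Avicel they lay at 875 and 927 bp, with folds of 18.9 and 8.07. XLR-1 on Avicel list 3 had one at 874 bp (fold 10.3) and CLR-1 on sucrose list 2 one at 865 bp (fold 1.86). The 7 summits fell within 63 bp, all nearer to cdh-1, and XLR-1 and CLR-1 on sucrose with 1 list each were not called.

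The genes gh61-4 (NCU01050) and gh61-1 (NCU02240) belong to the family of lytic polysaccharide monooxygenases, which cut cellulose by oxidation. At gh61-4, 1795 bp from NCU01049 on chromosome V (merged region 2766835 to 2770933), the CLR-2 summits lay 392, 396 and 387 bp upstream of gh61-4 and the CLR-1 summits on Avicel 438, 462 and 436 bp. Their folds were 0.43, 12.3 and 6.83 for CLR-2 and 5.16, 5.51 and 13.6 for CLR-1. The ranges of the 2 factors did not overlap there and were 40 bp apart, with CLR-2 nearer to gh61-4. No other group had a summit in this stretch, and XLR-1 on Avicel list 3 had one 402 bp beyond the gh61-4 start codon.

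At gh61-1, which stands 1373 bp from NCU02239 on chromosome VII (merged region 3219075 to 3222153), the factors also stood apart. CLR-2 summits lay 328, 349 and 378 bp from the gh61-1 start codon, with folds of 0.38, 8.01 and 4.92. CLR-1 summits lay at 961 bp in list 1 (fold 9.09) and at 504 bp in list 3 (fold 7.70) on Avicel, and at 1038 bp in list 2 on sucrose (fold 2.37). The CLR-1 summits of list 1 on Avicel and list 2 on sucrose were thus nearer to NCU02239, and the 3 CLR-2 summits nearer to gh61-1.

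For the remaining 3 cellulose regions the CLR-1 lists on Avicel gave at most 1 summit. At NCU07898, on the same list of cellulose genes, CLR-2 summits lay 540, 573 and 591 bp from its start codon (folds 0.45, 8.84 and 4.29), and CLR-1 list 3 had one at 875 bp (fold 8.52). At gh7-2 (NCU04854), of glycoside hydrolase family 7, CLR-2 summits lay at 396 and 397 bp in lists 2 and 3 (folds 4.43 and 1.95) and XLR-1 on xylan list 3 had one at 416 bp (fold 9.13). At gh61-10 (NCU01867) the 2 XLR-1 lists on xylan had the summits, and of the 7 regions it alone had its median summit nearer to the partner. They lay at 515 and 473 bp from NCU01866 (folds 7.70 and 5.03). The median summit at NCU07898 and at gh7-2 was nearer to the listed gene.

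The regions of gh2-2 (NCU05956), of glycoside hydrolase family 2, and of NCU09524 were among the 5 picked by the median rank of CLR-2 by score, a measure in which tied scores in list 3 left regions level. At gh2-2, 1336 bp from NCU05955, CLR-2 summits lay 884 and 864 bp from gh2-2 in lists 2 and 3 (folds 6.99 and 3.55), on the side of NCU05955. CLR-1 had summits at 1151 and 916 bp in lists 1 and 3 on Avicel (folds 7.45 and 8.30), and the ranges of the 2 factors were 32 bp apart. NCU09524/NCU09523, on chromosome III, 13947 to 16457, had CLR-2 summits at 334, 327 and 309 bp from NCU09524 with folds of 0.48, 9.58 and 5.58. CLR-1 on Avicel was called there too, with summits at 286 and 325 bp in lists 1 and 3 (folds 7.45 and 7.48). At a fold of at least 5, CLR-2 was called at 4 regions, and these were cbh-1, cdh-1, gh61-4 and NCU09524. At an FDR of at most 5% it was called at 21.

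**Figure D4:**
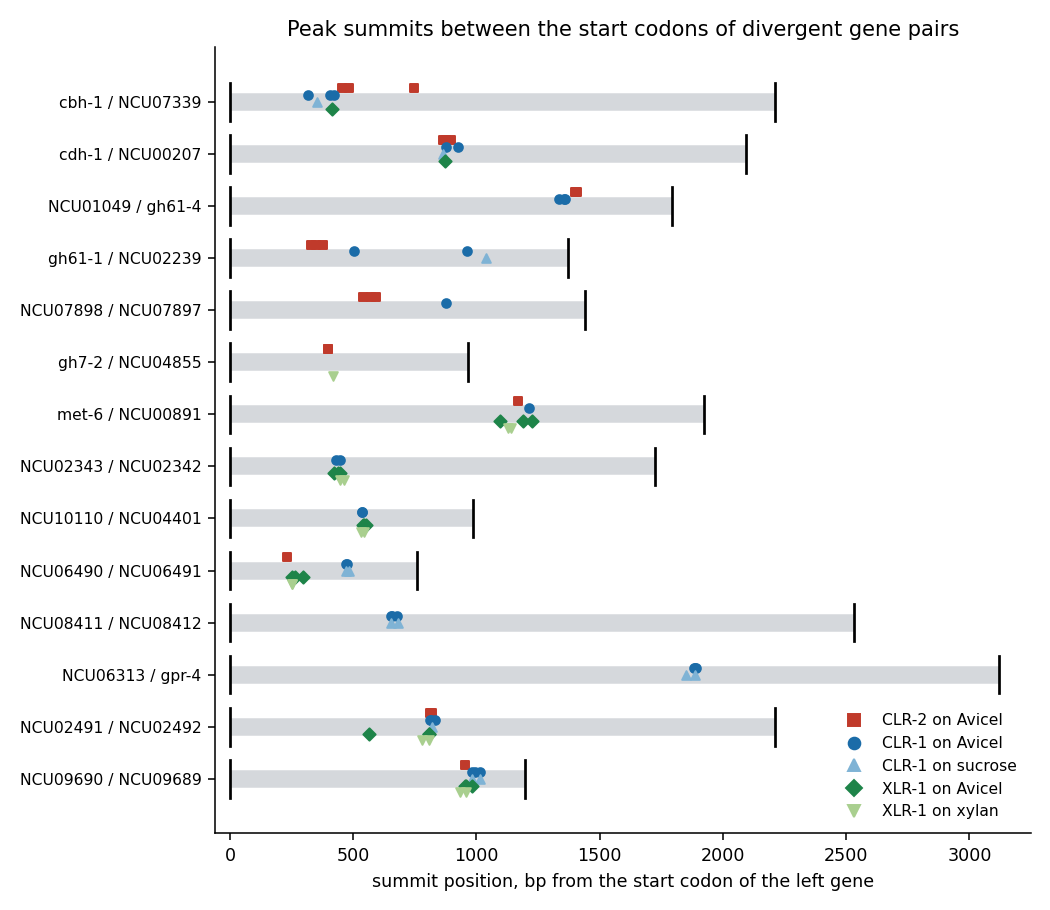
Summits between the start codons at 14 of the named gene pairs (rows, left gene first), as bp from the start codon of the left gene (x axis). Grey bars span the stretch between the start codons (black ticks), each point is the summit of 1 list and its colour and shape give the group. At cbh-1, cdh-1 and gh61-4 CLR-2 and CLR-1 summits lie within 427 bp of each other, though among these the ranges of the 2 factors on Avicel overlap only at cdh-1. At NCU06490/NCU06491 CLR-1 and XLR-1 summits form 2 separate clusters.

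The 5 best-ranked XLR-1 regions on xylan included 2 beside genes of xylan and pentose use. Of 13 genes of xylan degradation and pentose use, 5 were beside a member region, each the nearer of its pair. In all, 1484 genes were, and the 7 chromosomes hold 9729 protein-coding genes. XLR-1 was called at 2 of these 5 regions on both carbon sources. CLR-1 on Avicel was called at 1, and CLR-2 and CLR-1 on sucrose at 0. Over all 758 regions XLR-1 was called at 22.3% on Avicel and at 6.60% on xylan, and no test was made of the 5 against these shares.

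One was between met-6 (NCU00892, a gene of folate and methionine metabolism) and NCU00891, on the list of xylan and pentose genes, 1922 bp apart on chromosome I (merged region 6851338 to 6854868). XLR-1 summits lay 735, 828 and 698 bp upstream of NCU00891 in lists 1, 2 and 3 on Avicel, and 794 and 780 bp in lists 1 and 3 on xylan. Their folds on Avicel were 31.0, 44.4 and 19.4, and those on xylan 47.9 and 45.9. CLR-1 list 1 on Avicel (710 bp, fold 4.38) and CLR-2 list 3 (755 bp, fold 1.08) each had 1 summit in the same place, and CLR-2 list 3 had another 761 bp beyond NCU00891. The 7 summits between the start codons were all nearer to NCU00891 than to met-6, within 130 bp of each other.

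The other was between NCU02343, also on that list, and NCU02342, 1723 bp apart on chromosome VII (merged region 2847279 to 2848559). XLR-1 summits lay 440, 421 and 448 bp from NCU02343 on Avicel, with folds of 35.7, 37.8 and 18.9. On xylan they lay at 463 and 446 bp, with folds of 81.5 and 62.2. CLR-1 lists 1 and 3 on Avicel had summits at 448 and 432 bp (folds 7.63 and 6.66), CLR-2 had none, and the 7 summits fell within 42 bp.

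At the other 3 xylan and pentose regions no group reached 2 lists. NCU00643, beside gh35-1, had XLR-1 summits in list 3 on Avicel (199 bp, fold 7.04) and list 3 on xylan (606 bp, fold 6.40). gh3-7 (NCU09923), of glycoside hydrolase family 3, had 1, in XLR-1 on xylan list 3 (353 bp, fold 7.60). gh10-1 (NCU05924), a family 10 xylanase gene, had 1, in CLR-1 on sucrose list 2 (1286 bp, fold 2.71).

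A region in which XLR-1 ranked near the top on both carbon sources lay between NCU10110 and NCU04401, which have no gene name in the annotation used, 987 bp apart on chromosome IV (merged region 3483121 to 3485692). Its folds were 69.6, 104 and 29.2 in lists 1, 2 and 3 on Avicel and 128 and 80.4 in lists 1 and 3 on xylan, and the peak ranked 2, 3 and 6 by score on Avicel and 1 and 4 on xylan. Summits lay 551, 541 and 544 bp from NCU10110 on Avicel and 532 and 545 bp on xylan. CLR-1 lists 1 and 3 on Avicel had peaks at the same place, at 536 and 534 bp, both with a fold of 5.71. The pair NCU04400/NCU10107, whose merged region starts at 3488313 on the same chromosome, had XLR-1 folds of 16.3, 28.3 and 11.4 on Avicel and 63.2 and 38.9 on xylan, with summits 375 to 393 bp from NCU04400 in all 5.

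Of the smaller lists, none of the 9 genes of carbon regulators stood beside a member region. Over the 7 chromosomes 1484 genes did, and 9729 protein-coding genes are annotated there. None of these small lists was tested against that share. Of 4 mannan and pectin genes, NCU08412 did, and CLR-1 was called there on both carbon sources. Its 5 summits lay 653 to 681 bp from the partner NCU08411 and 1851 to 1879 bp from NCU08412, so the listed gene was the farther one in every list. Their folds were 10.8, 7.76 and 12.01 on Avicel and 8.41 and 3.74 on sucrose. CLR-2 and XLR-1 had no summit there.

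Of 6 transporter genes 2 stood beside a region. At NCU00988 the partner NCU00989 was the nearer one, at 79 and 141 bp in CLR-1 lists 1 and 3 on Avicel (folds 5.07 and 6.74) and at 76 and 86 bp in XLR-1 lists 1 and 3 on xylan (folds 22.6 and 14.2). At cdt-1 (NCU00801), a cellodextrin transporter gene, the partner NCU10770 lies inside the annotated span of cdt-1 itself (chromosome I, 7121829 to 7125021). Of 10 summits there 8 lay beyond the NCU10770 start codon, among them all 3 of CLR-1 on Avicel (folds 14.9, 21.7 and 18.0), at 1006, 2282 and 1000 bp from the start codon of cdt-1. The 2 in between were in CLR-2 list 3, at 377 bp (fold 2.56), and in XLR-1 on Avicel list 3, at 359 bp (fold 8.30). The pair is thus divergent by its listed start codons, though its annotated spans overlap.

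The remaining lists held few members. At NCU09223, on the list of secretion genes, XLR-1 on Avicel was called, with summits at 544 and 526 bp in lists 1 and 3 (folds 10.3 and 7.79). Both peaks were weak by score (52.6 and 52.3), ranking 2190.5 of 2284 and 6707 of 6868 in their lists. CLR-1 list 1 on Avicel (1121 bp, fold 5.37) and CLR-2 list 3 (545 bp, fold 1.78) had 1 summit each there. gla-1 (NCU01517), the glucoamylase gene of starch use, had 1 summit, in XLR-1 on Avicel list 3 (fold 16.3), at 1629 bp from its partner NCU01519 and 1696 bp from gla-1. The histone genes hH3 and hH4-1 (NCU01635 and NCU01634), which are partners of each other, had CLR-1 list 3 on Avicel at 215 bp from hH4-1 (fold 4.94) and list 2 on sucrose at 106 bp (fold 2.54). At hH2B (NCU02435) the only summit, in CLR-1 on sucrose list 2, lay 804 bp beyond its start codon.

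At his-3 (NCU03139), the locus that carries the tagged genes in all these strains, XLR-1 on Avicel was called by the first rule alone. Its summits in lists 1 and 2 lay 324 bp inside the partner NCU03138 (folds 20.7 and 15.7), and that of list 3 lay 525 bp upstream of his-3 (fold 10.3). CLR-2 list 3 (fold 1.11) and CLR-1 on sucrose list 2 (fold 1.98) had summits inside NCU03138 too. Reads of the inserted construct cannot be told apart from those of the native locus here.

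CLR-1 kept, in the median region, to almost the same point of a stretch on Avicel and on sucrose. It was called in both at 76 regions, 10.03% of the 758, beside a background of 4.94% of all merged regions. That is 40.9% of its 186 on Avicel, beside 32.1% of all merged regions called for it there, and 91.6% of its 83 on sucrose, beside 90.8%. The share of the sucrose calls was thus near its background. By the second rule the count was 64, or 39.5% of 162 and 90.1% of 71. At these 64 the median summit differed between Avicel and sucrose by 13.75 bp in the median and by 506 bp at most. The ranges of the 2 carbon sources did not overlap at 13 (20.3%). By the first rule the ranges did not overlap at 16 of 76 (21.1%), beside a background of 25.1% by that rule. Without CLR-1 list 1 or list 3 on Avicel the first count was 43 or 40. Whether the pulldowns of CLR-1 share a control library is not given in the sources used here.

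Among the best-ranked CLR-1 regions were 2 that the other factors left alone. Between NCU06313 and gpr-4 (NCU06312), a gene of a G protein-coupled receptor, the start codons are 3121 bp apart on chromosome IV (merged region 2952333 to 2953518). CLR-1 folds were 18.6, 12.4 and 21.3 on Avicel and 7.97 and 3.62 on sucrose, with summits 1229, 1234 and 1237 bp from gpr-4 on Avicel and 1234 and 1270 bp on sucrose. Between NCU05068 and NCU10697 the folds were 20.0, 13.8 and 20.3 on Avicel and 4.56 and 3.10 on sucrose. The summits there lay 520, 514 and 513 bp from NCU05068 on Avicel and 514 and 441 bp on sucrose. CLR-2 and XLR-1 had no summit in either region in the 13 lists.

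Of the 5 best-ranked CLR-1 regions on sucrose, NCU05854/NCU05855, NCU02399/NCU02398, NCU02009/NCU02008, NCU00761/NCU00760 and cdt-1/NCU10770, all were also called on Avicel. At NCU05854/NCU05855, 3252 bp apart on chromosome VII, the folds were 24.5, 10.1 and 21.6 on Avicel and 12.4 and 3.80 on sucrose, with summits 1686 to 1720 bp from NCU05854 in all 5 lists. At NCU02399/NCU02398 CLR-1 summits lay 718 to 745 bp from NCU02399 in its 5 lists, and XLR-1 lists 1 and 2 on Avicel had theirs at 718 and 702 bp. XLR-1 list 3 on Avicel had its summit at 401 bp, with a fold of 18.1, and CLR-2 list 3 had one at 735 bp, with a fold of 4.72.

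XLR-1 was called on both Avicel and xylan at 32 regions, 4.22% of the 758, beside a background of 3.04%. That is 18.9% of its 169 on Avicel, beside 12.8% of all merged regions called for it there, and 64% of its 50 on xylan, beside 59.4%. By the second rule it was 26, or 22.0% of 118 and 60.5% of 43. The median summit differed by 12.5 bp in the median at these 26 and by 1193.5 bp at most, and the ranges did not overlap at 8 (30.8%). By the first rule the ranges did not overlap at 10 of 32 (31.25%), beside a background of 36.5% by that rule. The first count was 21 without XLR-1 list 1 on Avicel.

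The factors shared regions on Avicel to unequal degrees. CLR-1 and CLR-2 were both called at 41, 5.41% of the 758, beside a background of 7.93% of all merged regions. That is 61.2% of the CLR-2 regions, beside 49.3% of all merged regions called for CLR-2, and 22.0% of the CLR-1 regions, beside 51.6%. By the second rule the count was 26. CLR-1 and XLR-1 were both called at 70, 9.23% of the 758, beside 6.05%, and at 47 by the second rule. The 70 are 37.6% of the CLR-1 regions, near the 39.3% over all merged regions, and 41.4% of the XLR-1 regions, beside 25.4%. CLR-2 and XLR-1 were both called at 33, 4.35% of the 758, beside 6.12%, and at 12 by the second rule. The 33 are 49.3% of the CLR-2 regions, beside 38%, and 19.5% of the XLR-1 regions, beside 25.7%. No test of these shares was made. Each count was smaller without certain lists. For CLR-1 with CLR-2 it was 27 and 25 without CLR-1 list 1 or 3, and 10 and 8 without CLR-2 list 1 or 3. For CLR-1 with XLR-1 it was 30 and 36 without CLR-1 list 1 or 3, and 35 without XLR-1 list 1 or list 3. For CLR-2 with XLR-1 it was 5 and 3 without CLR-2 list 1 or 3, and 13 and 18 without XLR-1 list 1 or 3. All 3 factors were called on Avicel at 24 regions, 3.17% of the 758, near a background of 3.38%, and at 10 by the second rule.

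These 10 were named after their values were seen. They lie between mus-40 and NCU07497, NCU01905 and NCU01904, NCU02491 and NCU02492, NCU09321 and his-2, csr-1 and NCU00725, rcm-1 and NCU06841, NCU08193 and NCU08194, NCU07589 and NCU07590, NCU07010 and NCU07011, and NCU09785 and NCU09786. The gene his-2 belongs to histidine synthesis, csr-1 encodes a cyclophilin, and rcm-1 encodes a corepressor. None of the 69 listed genes is among them. At a fold of at least 5, CLR-2 was called only at the regions of cbh-1, cdh-1, gh61-4 and NCU09524, and so at none of these 10. At mus-40/NCU07497, with 807 bp between the start codons, 10 lists had a summit between them, the median being 63 bp from NCU07497. At NCU09321/his-2 the stretch held 2 separate member regions, the first with summits 254 to 339 bp from NCU09321 in 9 lists and the second with summits 1454 to 1736 bp from it in 5.

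A summit lay in all 13 lists at 1 region (cbh-1), in 12 lists at 1 (NCU09549/NCU09550) and in 11 lists at 7, among them NCU02491/NCU02492, NCU09690/NCU09689 and NCU00761/NCU00760. At NCU02491/NCU02492 on chromosome I, 10 of the 11 summits lay 777 to 830 bp from NCU02491, and that of XLR-1 on Avicel list 3 lay at 565 bp. XLR-1 folds on Avicel were 40.8, 45.7 and 13.8, and those on xylan 39.9 and 11.8. The CLR-1 folds were 12.9, 30.8 and 7.82 on Avicel and 6.64 in list 1 on sucrose, and CLR-2 had 1.24 and 2.26 in lists 1 and 3. At NCU09690/NCU09689 on chromosome V all 11 summits lay 184 to 263 bp from NCU09689.

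At 2 of these regions no summit lay between the start codons. At NCU09549/NCU09550 all 12 summits lay 852 to 913 bp beyond the start codon of NCU09550. At NCU00761/NCU00760 all 11 lay beyond that of NCU00760, 9 of them by 674 to 731 bp. Both entered through CLR-1 peaks that were measured from the peak start.

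Where 2 factors were at the same region, their summits lay farther apart on average than those of lists of 1 factor, in a design too small for a test to pass. For CLR-2 and XLR-1, lists of different factors differed by 104.1 bp on average in the median summit distance, and lists of the same factor by 22.5 bp (two-sided exact permutation p = 0.2), with summits between the start codons. For CLR-1 and CLR-2 the values were 49.1 and 22.1 bp (exact permutation p = 0.2), and for CLR-1 and XLR-1 42.9 and 20.9 bp (exact permutation p = 0.2). Swapping the 2 factor names leaves the measure as it is, so 6 lists have 10 distinct relabellings and 0.2 is the smallest two-sided p. In all 3 pairs the real labels gave the largest value of the 10. None could pass the threshold, so nothing is concluded from this rank. With summits anywhere in the region the differences between unlike and like lists were 237.3, 123.7 and 48.4 bp for the same pairs. Without CLR-2 list 2 the difference was 86.0 bp for CLR-2 and XLR-1 and 10.9 bp for CLR-1 and CLR-2.

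Pairs of lists with few shared regions carry much of these differences between factors. CLR-2 list 2 shared 4, 4 and 5 regions with the XLR-1 lists and 9, 3 and 11 with the CLR-1 lists, with medians of 66 to 287 bp and 66 to 111 bp. CLR-2 list 3, which shared 78, 32 and 110 regions with the XLR-1 lists, gave 21.5, 35 and 28 bp.

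For single regions the ranges of 2 factors were compared directly. At the 26 regions called for CLR-1 and CLR-2 by the second rule they did not overlap at 11 (42.3%), and at the 41 called by the first rule at 12 (29.3%), beside a background of 26.4% of all merged regions called for both. For CLR-1 and XLR-1 it was 20 of 47 (42.6%) and 32 of 70 (45.7%), beside 56.9%. For CLR-2 and XLR-1 it was 8 of 12 (66.7%) and 16 of 33 (48.5%), beside 49.4%. By the first rule, summits apart were thus near the background for CLR-1 with CLR-2 and for CLR-2 with XLR-1. For CLR-1 with XLR-1 they were below it. No background was taken by the second rule, so nothing is read from its larger shares. The gap was over 100 bp at 5 regions for CLR-1 and XLR-1, at 1 for CLR-1 and CLR-2 (gh61-1) and at 0 for CLR-2 and XLR-1.

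One of the 5 was NCU06490/NCU06491, among the best-ranked of XLR-1 on xylan, with start codons 760 bp apart on chromosome III (merged region 1608950 to 1610245). CLR-1 summits lay 473 and 472 bp from NCU06490 in lists 1 and 3 on Avicel and 484 and 471 bp in lists 1 and 2 on sucrose. XLR-1 summits lay 265, 252 and 295 bp from it in lists 1, 2 and 3 on Avicel and 251 and 253 bp in lists 1 and 3 on xylan. CLR-1 folds were 11.3 and 15.6 on Avicel and 4.60 and 3.16 on sucrose, and XLR-1 folds 41.3, 49.7 and 13.1 on Avicel and 62.1 and 54.1 on xylan. All 4 CLR-1 summits were nearer to NCU06491 and all 5 XLR-1 summits nearer to NCU06490, with 177 bp between the 2 factors on Avicel. The summit of CLR-2 list 3, at 233 bp (fold 1.14), was on the XLR-1 side.

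In most regions the lists named the same gene as the nearer one. Of 468 regions with a summit in at least 2 lists, 370 (79.1%) had 1 gene nearer in every list, and of 389 with summits between the start codons in at least 2 lists 307 (78.9%) did. The summits of these 389 spanned 80 bp in the median, at most 50 bp in 144 and over 500 bp in 49. Within a group, called summits spanned 32.5 bp in the median for CLR-2, 25 bp for CLR-1 on Avicel and on sucrose, 26 bp for XLR-1 on Avicel and 14 bp for XLR-1 on xylan. The median distance to the nearer start codon of called regions was 418.5 bp for CLR-2, 515.25 bp for CLR-1 on Avicel, 514.5 bp for CLR-1 on sucrose, 416.5 bp for XLR-1 on Avicel and 485 bp for XLR-1 on xylan. These distances were not tested between groups.

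Averaged over the lists, member peaks were narrower than the other peaks of their list, though the rule itself bears on width, and higher in fold. Each peak was given its percentile within its own list. For width the member peaks averaged 11.8 percentile points below the others (mean difference -11.8, lower in 10 of 13 lists; two-sided exact sign-flip permutation p = 0.00586, adjusted p = 0.0176 over 3 measures). The difference was -21.6, -11.8 and -7.88 in the CLR-2 lists, -24.4, -17.4 and -22.4 in the CLR-1 lists on Avicel and -32.4 and -17.6 in those on sucrose. In the XLR-1 lists it was between -1.79 and 1.36 on Avicel and 2.09 and 0.961 on xylan. The difference was thus negative in all 8 CLR-1 and CLR-2 lists and near 0 in the 5 XLR-1 lists, and was not tested between factors. A wide peak is likelier to hold a gene or to reach past 1, which the rule leaves out, so width is not independent of the rule. The test therefore cannot show a trait of width apart from the rule. Against other peaks with no gene inside the mean was -13.8 (adjusted exact sign-flip p = 0.0212), a comparison in which the 2000 bp limit still sets the members apart.

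For fold the mean difference was 9.34 percentile points (higher in 10 of 13 lists, exact sign-flip permutation p = 0.0186, adjusted p = 0.0278). The exceptions were CLR-2 list 1 (-16.9), XLR-1 on xylan list 1 (-4.61) and CLR-1 on sucrose list 2 (-0.870). This exact permutation call was near the threshold. It was lost without CLR-1 list 1 or 2 on Avicel, CLR-2 list 2 or 3, or CLR-1 list 1 on sucrose, with adjusted exact p between 0.0505 and 0.0557, and against other peaks with no gene inside (9.64 points, adjusted exact p = 0.0652). For score the mean difference was -0.661 (higher in 8 of 13 lists, exact sign-flip permutation p = 0.822), and 1.19 without CLR-2 list 1, whose own value was -22.8. Lists of a group are not independent of each other. Over 5 group means the adjusted exact sign-flip p was 0.281 for fold and 0.281 for width. No unadjusted p under 0.0625 is possible there.

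**Figure D5:**
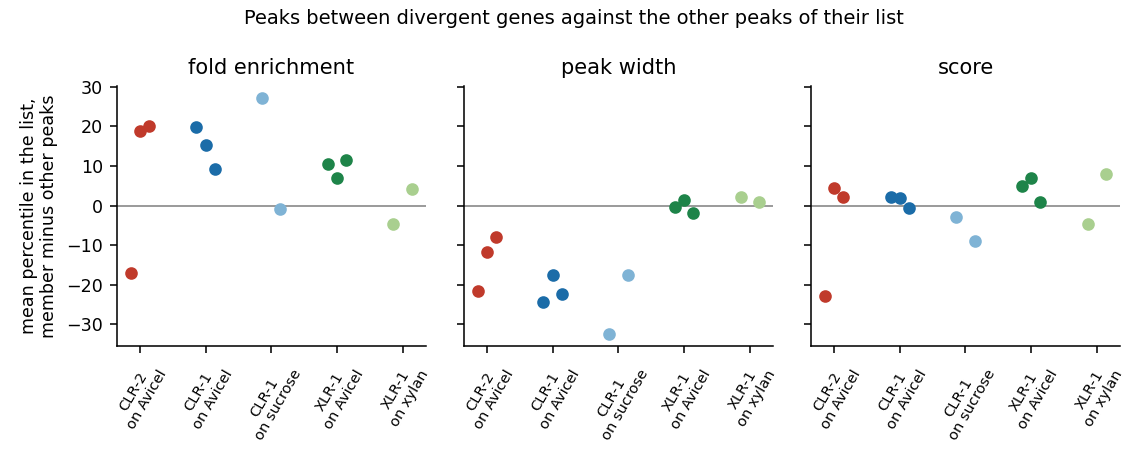
Mean percentile of fold enrichment, width and score within the list, member peaks minus other peaks (y axis, percentile points), by group (x axis); each point is a list. Widths are lower in all 8 CLR-1 and CLR-2 lists and near 0 in the 5 XLR-1 lists, and CLR-2 list 1 lies apart in fold and score.

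The 4 lists that the choice of regions did not use had summits at these regions too. CLR-1 at 24 h on Avicel, 1 list of 8110 peaks, had one in 49.1% of the 758, beside 38.9% of all merged regions, and in 145 of the 186 called for CLR-1 on Avicel at 4 h (78.0%, beside 71.2%). CLR-2 at 24 h, from a heterokaryon whose label names no deletion, had one in 20.4%, beside 12.6%, and in 23 of the 67 called for CLR-2 at 4 h (34.3%, beside 20.1%). V5-tagged CLR-1 at 4 h, in a strain with mus-51 deleted, had one in 11.5%, beside 12.1%, and in 78 of the 186 (41.9%, beside 59.7%). XLR-1 list 2 on xylan had one in 11.1%, beside 7.61%, and in 41 of the 50 called from the other xylan lists (82%, beside 68.7%). With 1 list each these shares have no replicate error.

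The member peak nearest to the limit was that of CLR-1 on Avicel list 1 between NCU08976 and NCU08977, with the farther start codon at 1999 bp (fold 5.91). The peak just outside was that of XLR-1 on xylan list 3 between inv (NCU04265), the invertase gene, and NCU04266, at 2001 bp (fold 18.6). That region is still a member through another list, since XLR-1 summits there lay 1993 to 2013 bp from inv in 4 lists.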

How the data were processed

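The 17 peak lists came from ChIP-seq of N. crassa. The submitters' processing notes name Bowtie2 as a tool, and the file headers are those of MACS. Neither the control library of a list nor its total reads is given in the sources used here. As deposited by the authors, each list gives per peak the tag count, a score of −10 times log10 p, the fold enrichment as a ratio and the FDR in percent, with the flanking genes and start codons. Supercontig names are those of NC12.

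Lists carry a group but not which library they are. The members, gene lists and rules were chosen with earlier results of these data known. With Python 3.11.15, pandas 2.3.3 and numpy 2.4.6, member peaks were selected at a limit of 2000 bp and merged at 1 bp of overlap, and a group was called at a region with summits in at least 2 of its lists. Summits lie at the peak start plus the summit offset minus 1. Shares of peaks were compared with exact permutation tests over lists, percentiles with exact sign flips over 13 lists, and summit distances over 20 relabellings, 10 of them distinct (the planned smallest p of 0.1 was in fact 0.2), with Benjamini-Hochberg adjustment over each family at a threshold of 0.05 (statsmodels 0.14.6). The code was tested on simulated data. Named regions are those beside a gene of 9 lists, the 5 best-ranked of each group, those with summits in the most lists, and the peak nearest the limit; other regions named are said to be so. Gene names and spans are from NCBI RefSeq (NC12), where all 1484 flanking genes matched and 209 had a symbol. Tag counts per peak ran from 10 to 12838 in member peaks, and counting error falls with their number. Alternatives were other limits, scores, folds, FDRs, gene assignments, list numbers and list lengths, and leaving out each list. The inputs, the mock pulldowns and sequences were not used here.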

Additional observations from a re-analysis of the deposited data

Results flagged for a closer look

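Peak lists outside the choice of regions had summits inside them. There were 372 such regions of 758 for CLR-1 at 24 h on Avicel, 155 for CLR-2 at 24 h on Avicel, 87 for V5-tagged CLR-1 on Avicel and 84 for XLR-1 list 2 on xylan. In that order these were 49.1%, 20.4%, 11.5% and 11.1% of the 758. The shares of all merged regions were 38.9%, 12.6%, 12.1% and 7.61%, so V5-tagged CLR-1 was near its background. The counts are listed because these lists enter no comparison between groups. No control list was analysed, so no level of a control stands beside them.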

How the results depend on the processing

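Of the alternatives that left out no list, 111 values kept their direction and side of the threshold (counts: stayed within 1.5 times), 51 moved, 3 lost a call and 5 turned sign; the cause was not tested. The counts below are in the order CLR-1 (Avicel), CLR-2, XLR-1 (Avicel), XLR-1 (xylan), CLR-1 (sucrose). At a limit of 1000 bp they were 68, 29, 81, 16 and 30 in 337 regions, with 1 gene nearer in 151 of them. With 1 list enough they were 315, 274, 547, 114 and 309, and with lists cut to their best 658 peaks 69, 12, 45, 30 and 33. With all lists required, the first 3 were 62, 12 and 56. Counting member peaks alone they were 103, 36 and 112, and 18 on sucrose. A score of at least 100 gave 122 for CLR-1 on Avicel, 63 for XLR-1 on Avicel and 19 on xylan. A fold of at least 5 gave 4 for CLR-2 and 0 for CLR-1 on sucrose, and an FDR of at most 5% gave 21 and 18. The rule on start codons, chosen after seeing the data, gave 40 for CLR-2.

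Shared regions moved too. At 1000 bp they were 17 for CLR-1 with CLR-2, 32 for CLR-1 with XLR-1, 13 for CLR-2 with XLR-1, 10 for XLR-1 on both carbon sources and 27 for CLR-1 on both. At a score of 100 the first 4 were 24, 30, 15 and 9. At a fold of 5 CLR-1 with CLR-2 was 4, CLR-2 with XLR-1 1 and CLR-1 on both 0, and at an FDR of 5% these were 15, 14 and 17. Between start codons CLR-1 with CLR-2 was 26 and CLR-2 with XLR-1 12. Of the lists outside the rule, V5-tagged CLR-1 was seen in 53 regions and xylan list 2 in 40 at a score of 100.

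The share of CLR-1 minus XLR-1 was -0.846 points at 1000 bp, -0.659 with equal lists and -0.330 between start codons, and CLR-1 on Avicel minus sucrose was -0.0289 with genes taken from the summit. The score difference was 1.12 points at 1000 bp. The fold and width differences over 5 group means were 8.95 and -11.8 points, and the fold difference was 9.64 beside peaks with no gene inside; none of these 3 passed the threshold.

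Leaving out each list in turn gave 522 to 757 regions, 70 to 186 for CLR-1 on Avicel, 15 to 67 for CLR-2, 63 to 169 for XLR-1 on Avicel, 46 to 50 on xylan and 76 to 83 on sucrose. Shared regions were 8 to 41 for CLR-1 with CLR-2, 30 to 70 for CLR-1 with XLR-1, 3 to 33 for CLR-2 with XLR-1, 21 to 32 for XLR-1 on both carbon sources and 40 to 76 for CLR-1 on both, and 1 gene was nearer in 291 to 369. Percentile differences were -1.37 to 1.19 for score, 7.84 to 11.5 for fold and -12.9 to -10.1 for width. Shares were -4.87 to -2.93 points for CLR-2 minus CLR-1, -4.25 to -3.07 for CLR-2 minus XLR-1, -0.688 to 1.25 for CLR-1 minus XLR-1, -4.91 to -0.508 for XLR-1 on Avicel minus xylan and -0.298 to 2.42 for CLR-1 on Avicel minus sucrose. Summit distances were 10.9 to 186.3 bp for CLR-1 and CLR-2, 24.8 to 65.4 for CLR-1 and XLR-1 and 86.0 to 334.8 for CLR-2 and XLR-1. Groups of 2 lists left with 1 gave no call. No paired analysis was possible because the list numbers pair no samples across groups and no label ties a list to a library.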
